A study of Mus musculus with 9 samples.

Results

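The plasminogen activator system was followed here through 7 genes of 24594 in a table of read counts, found by their Entrez identifiers. They were the activators Plau and Plat, the receptor Plaur, and the serpins Serpine2, Serpinb2, Serpinb5 and Serpinf1. The cells were BG2, a mammary tumour line of the MMTV-NeuIresCre mouse strain, in which the MMTV promoter drives the oncogene Neu together with Cre in mammary epithelium. Messenger RNA was sequenced in 3 groups of 3 technical replicates: Sox10 knockout clone 1, Sox10 knockout clone 2, and wild-type cells kept in bulk. All 3 groups carry the MMTV-NeuIresCre transgene. The clones were grown out of a CRISPR-edited population whose guides cut the Sox10 coding sequence in exon 3, and the column names of the wild-type libraries hold NTC. Each knockout group is 1 clone and the comparison is a bulk population, so that loss of Sox10 and traits of a single clone cannot be told apart. The labels call the replicates technical and do not say whether they came from separate cultures, so the spread behind each p-value is that between these libraries and may be technical. In bulk RNA, fewer cells that express a gene and less of its RNA per cell cannot be told apart.

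Plasminogen circulates as an inactive zymogen and is cut to plasmin, a broad protease that dissolves fibrin and cleaves matrix proteins and some growth factors. Urokinase (uPA, from Plau) does this at the cell surface, where the GPI-anchored receptor uPAR (from Plaur) holds it, while tissue-type activator (tPA, from Plat) works best bound to fibrin. Serpins stop these proteases by trapping them in a covalent complex. Of the 4 serpins here, protease nexin-1 (Serpine2) and PAI-2 (Serpinb2) inhibit plasminogen activators. Maspin (Serpinb5) and PEDF (Serpinf1) are non-inhibitory serpins, so the name of inhibitors covers these by family and not by activity. In the mammary gland uPA and uPAR are known for roles in tissue remodelling and tumour invasion, and maspin is a product of normal mammary epithelium.

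Library totals ran from 65805296 to 83282841 counts. Sox10 had 0, 6 and 0 counts in clone 1 and 0, 2 and 2 in clone 2, against 16660, 21437 and 26038 in the wild-type libraries. The 10 mammary epithelial markers summed to 1203 to 1361 CPM in clone 1, 1584 to 1776 CPM in clone 2 and 8724 to 10257 CPM in wild-type cells. Of these, Krt8 averaged 666 CPM in clone 1, 787 CPM in clone 2 and 2393 CPM in wild-type cells, whereas Epcam was at 0.0341 CPM, 0 counts and 659.5 CPM. Of the other keratins, Krt18 stood at 480.5, 641 and 2305 CPM, and Krt7 at 0.489, 5.68 and 3786 CPM. Of the 9 markers tested, 6 fell and 1 rose in both clones, beside 29.4% and 28.7% of all genes. The 1 that rose was Krt14, at 10.1 CPM in clone 1, 135 CPM in clone 2 and 3.80 CPM in wild-type cells. Gata3, at 86.2, 85.2 and 88.9 CPM, was called in neither clone, and Krt5, at 0.396, 0.150 and 0.105 CPM, was called higher in clone 1 alone. The epithelial markers thus went different ways: Epcam was nearly absent from the clones, Krt8 and Krt18 remained at lower levels, and Krt14 rose. CPM are counts scaled to a common library size by TMM. The replicate 1 libraries of the 3 groups deviated together from their group means (r of 0.214 to 0.249 over the tested genes), and results without them are given in the closing section. Over all genes, 76.5% of 13928 tested were called in clone 1 and 74.4% in clone 2 at an adjusted p under 0.05 in edgeR, so a call alone says little in these data and the sizes matter more.

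The 7 transcripts did not all move alike. Both parts of the urokinase axis fell 2- to 3-fold in both clones, tPA rose about 11-fold in both, and the serpins ranged from near loss in both clones to a change in clone 1 that was not called in clone 2. All 7 passed the expression filter. Both clones called the same direction in 6 of 7 (1 higher, 5 lower), beside 58.1% of all genes, 28.7% higher and 29.4% lower, and 0 went opposite ways, beside 4.79%. In clone 1, 7 of 7 were called (1 higher, 6 lower), beside 37.9% of all genes called higher and 38.6% called lower. In clone 2, 6 of 7 were called (1 higher, 5 lower), beside 37.3% and 37.1%. A fold change past a log2 of 1 was called by glmTreat in 7 of the 7 in clone 1 and in 4 in clone 2, beside 25.7% and 24.3% of all genes. Their median log2 fold change was -1.62 in clone 1 and -1.21 in clone 2, beside 0.00 in each over all genes. Both comparisons share the wild-type libraries.

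**Figure D1:**
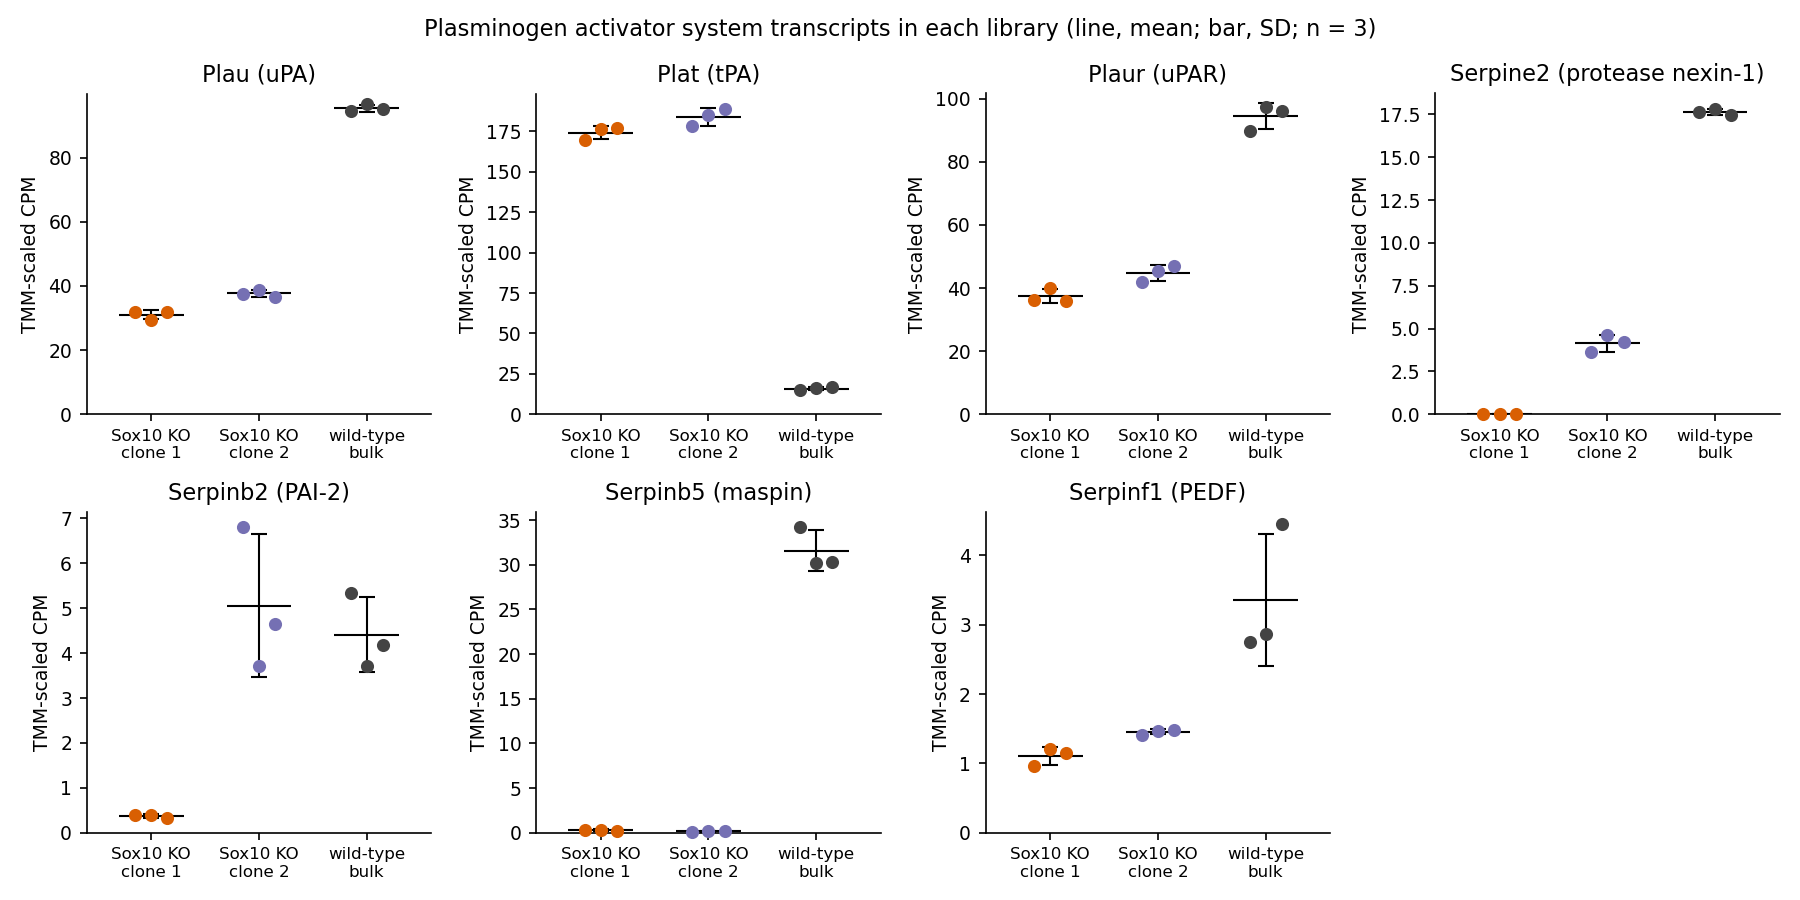
TMM-scaled CPM (vertical axes, each from 0) of the 7 genes in the 3 libraries of clone 1, clone 2 and wild-type cells; points are libraries, lines means and bars SD. Plat stood above 160 CPM in every clone library and below 20 CPM in wild-type cells, Serpinb5 lay near 0 in both clones, and Serpine2 lay near 0 in clone 1 only.

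Plau (Entrez 18792, chromosome 14, 20836660 to 20843385 on GRCm38, plus strand) encodes urokinase. It stood at 31.9, 29.4 and 31.9 CPM in clone 1, at 37.6, 38.8 and 36.7 CPM in clone 2 and at 94.4, 96.6 and 95.2 CPM in wild-type cells. Every clone library lay below every wild-type library, and the 2 clones did not overlap either. The log2 fold changes were -1.62 ± 0.05 (SE) in clone 1 and -1.34 ± 0.05 in clone 2, with adjusted p of 1.77e-10 and 8.45e-10 (edgeR, n = 3 a group). Clone 2 was higher than clone 1 by a log2 of 0.28 ± 0.05 (adjusted p = 8.6e-04, edgeR). Of the 7 genes 4 were called higher in clone 2 than in clone 1 and 0 lower, beside 30.1% and 27.5% of all genes, 57.6% in all. The fall of Plau ran against its chromosome, since the tested genes of chromosome 14 had a median log2 fold change of 0.61 in clone 1 and 0.49 in clone 2. Its nearest tested neighbours, Camk2g and Vcl, had log2 fold changes of 0.19 and 0.96 in clone 1 and of 0.14 and 1.34 in clone 2.

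Plaur (Entrez 18793, chromosome 7, 24462484 to 24475968, plus strand) encodes the urokinase receptor. It stood at 36.3, 39.9 and 36.0 CPM in clone 1, at 41.9, 45.5 and 47.0 CPM in clone 2 and at 89.7, 97.2 and 96.3 CPM in wild-type cells. The receptor thus moved in the same direction as its ligand, with log2 fold changes of -1.34 ± 0.06 and -1.08 ± 0.06 (adjusted p of 5.12e-09 and 3.32e-08, edgeR). Against a log2 fold change of 1, glmTreat called it in clone 1 (adjusted p = 1.45e-04) and not in clone 2 (adjusted p = 0.158). Clone 2 exceeded clone 1 by a log2 of 0.26 ± 0.06 (adjusted p = 0.00512). The neighbour Smg9, 39.7 kb away, had log2 fold changes of -1.10 and -0.99, while Cadm4, at 6.06 kb, had 0.27 and 0.13 and was called in neither clone. The median over chromosome 7 was -0.43 in clone 1 and -0.41 in clone 2.

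Plat (Entrez 18791, chromosome 8, 22757727 to 22782844, plus strand) encodes tPA and was the only one of the 7 that rose. It stood at 169.7, 176 and 177 CPM in clone 1, at 178, 185 and 189 CPM in clone 2 and at 14.7, 16.3 and 16.7 CPM in wild-type cells. The lowest clone library was far above the highest wild-type library. The log2 fold changes were 3.45 ± 0.06 and 3.53 ± 0.06 (adjusted p of 1.3e-12 and 1.26e-12, edgeR), which is 10.9-fold and 11.5-fold by summed counts. The clones differed by a log2 of 0.08 ± 0.05, which was not called (adjusted p = 0.227). Plat rose apart from its neighbours: Ap3m2, 4.51 kb away, had log2 fold changes of 0.09 and 0.90, and Ikbkb had 0.12 and 0.73. The median over chromosome 8 was 0.35 in clone 1 and 0.15 in clone 2.

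Endothelial and neural cells are known sources of tPA, and their markers were checked beside this rise. The summed level of 8 endothelial markers was 15.9 to 18.1 CPM in clone 1, 0.816 to 1.09 CPM in clone 2 and 0 to 0.108 CPM in wild-type cells. Nearly all of it in clone 1 was Kdr, at 16.2 CPM, while Pecam1, Cdh5, Tek, Tie1, Cldn5 and Emcn stood at 0.146 CPM or less in every group. The last of the 8, Vwf, stood at 0.628 CPM in clone 1 and 0.314 CPM in clone 2, against 0 counts in wild-type cells. Both tested markers, Kdr and Vwf, were called higher in both clones, as were 28.7% of all genes. Kdr had only 4 counts in the wild-type libraries together, so both passed the expression filter only through the clones. Their calls are thus no support for a shared rise. The 8 Schwann and neural crest markers summed to 61.6 to 67.9 CPM in clone 1, 73.9 to 76.6 CPM in clone 2 and 197 to 227 CPM in wild-type cells. Most of that sum was Mbp and Erbb3, and of the 6 markers tested 3 fell and 0 rose in both clones, beside 29.4% and 28.7% of all genes. Among the 3 that fell, Ngfr had 0 counts in both clones and passed the expression filter only through wild-type cells. The 9 fibroblast markers summed to 217 to 223 CPM in clone 1, 136 to 150.1 CPM in clone 2 and 30.3 to 35.9 CPM in wild-type cells, most of it Pdgfra and Pdgfrb. Of these 9, 5 were tested and 4 rose in both clones, beside 28.7% of all genes. Dcn averaged 0.142 CPM or less in every group, and Lum and Thy1 had 0 counts in every library. The part of these cell types in the rise of Plat was not tested.

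**Figure D2:**
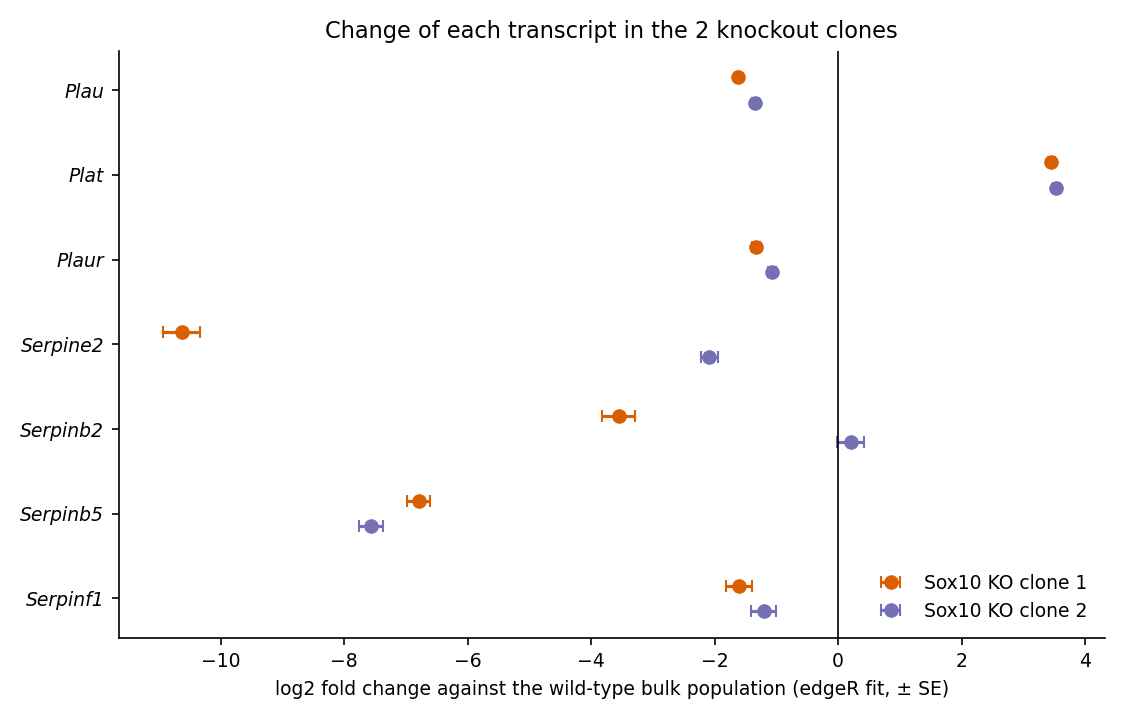
Log2 fold change (horizontal axis) of each of the 7 genes in clone 1 and clone 2 against wild-type cells, from the edgeR fit; bars are approximate SE. Plat lies at 3.45 and 3.53, Plau and Plaur between -1.62 and -1.08, and the clones lie farthest apart at Serpine2 and Serpinb2; the point of Serpine2 in clone 1 is a fitted value that rests on 2 counts.

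To compare levels between genes, CPM were divided by the length of the principal transcript. In clone 1 Plat led at 69.0 CPM per kb, before Plaur at 24.8 and Plau at 13.3. In clone 2 the order was the same, with Plat at 72.9, Plaur at 29.7 and Plau at 16.1 CPM per kb. Wild-type cells had Plaur at 62.7, Plau at 40.7, Serpinb5 at 11.8, Serpine2 at 7.98 and Plat at 6.30 CPM per kb. Urokinase was thus the more abundant activator transcript in wild-type cells and tPA in both clones. The ratio of Plau to Plat per kb was 0.192 ± 0.0114 in clone 1, 0.221 ± 0.0101 in clone 2 and 6.49 ± 0.393 in wild-type cells (SD, n = 3 each). The ratios of the groups did not overlap between clones and wild-type cells, at 0.180 to 0.202, 0.209 to 0.228 and 6.14 to 6.92. Plau and Plaur stayed closer to each other, at ratios of 0.536 ± 0.0535, 0.543 ± 0.0376 and 0.651 ± 0.0227. Counting every annotated exon in place of the principal transcript leaves each of these changes between groups as it is and shifts the levels: Plau to Plat became 0.470, 0.540 and 15.9, and Plau to Plaur 0.922, 0.933 and 1.12, which places Plau above Plaur in wild-type cells. On that scale Plat, at 2.55 CPM per kb, also stood above Serpine2, at 2.13, in wild-type cells.

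**Figure D3:**
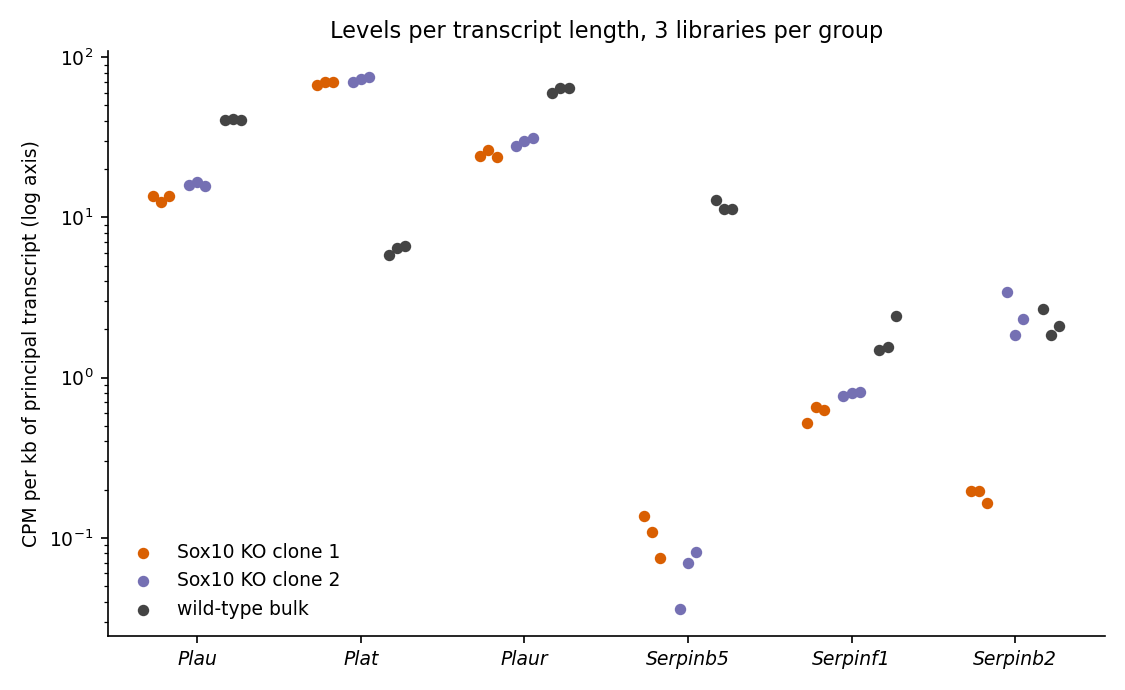
CPM per kb of principal transcript (log axis) of 6 of the 7 genes in each library of clone 1, clone 2 and wild-type cells. Plat lies above Plau in the clones and below it in wild-type cells; Serpine2 is left out because 2 of its clone 1 libraries had 0 counts.

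The serpins are taken next, with the promoter bases of 4 genes shown here. Plaur and Serpinb5 fell in both clones, and Serpine2 and Serpinb2 differed most between the clones. Serpine2 also fell in both clones, as did Serpinf1, whose bases are not shown. Each line gives the 250 bases before the RefSeq start site on GRCm38.p6, 5′ to 3′ on the strand of the gene. Serpinb2 has 2 such sites, and the window of the upstream site is shown. Plaur lies at chr7:24462233-24462482 (plus), Serpine2 at chr1:79858666-79858915 (minus), Serpinb2 at chr1:107511173-107511422 (plus) and Serpinb5 at chr1:106860925-106861174 (plus). Capitals mark TGANTCA, and ACAAAG or ACAATG, cores bound by Sox factors, on either strand. TGANTCA is wider than the core bound by AP-1 factors, which has C or G at the place of N.
Plaur: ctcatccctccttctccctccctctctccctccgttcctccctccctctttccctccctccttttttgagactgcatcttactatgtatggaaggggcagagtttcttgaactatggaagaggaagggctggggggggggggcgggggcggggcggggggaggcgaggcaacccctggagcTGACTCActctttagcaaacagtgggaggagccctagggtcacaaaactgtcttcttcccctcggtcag
Serpine2: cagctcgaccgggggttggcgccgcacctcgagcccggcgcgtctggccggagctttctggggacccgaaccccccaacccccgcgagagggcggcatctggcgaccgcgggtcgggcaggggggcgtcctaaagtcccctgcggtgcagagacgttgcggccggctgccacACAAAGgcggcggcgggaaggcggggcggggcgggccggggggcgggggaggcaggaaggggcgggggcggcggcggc
Serpinb2: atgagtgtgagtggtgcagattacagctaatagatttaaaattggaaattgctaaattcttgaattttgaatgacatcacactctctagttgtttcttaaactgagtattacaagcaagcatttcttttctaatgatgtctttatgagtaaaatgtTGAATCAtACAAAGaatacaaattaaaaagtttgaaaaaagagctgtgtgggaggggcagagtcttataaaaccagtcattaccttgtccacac
Serpinb5: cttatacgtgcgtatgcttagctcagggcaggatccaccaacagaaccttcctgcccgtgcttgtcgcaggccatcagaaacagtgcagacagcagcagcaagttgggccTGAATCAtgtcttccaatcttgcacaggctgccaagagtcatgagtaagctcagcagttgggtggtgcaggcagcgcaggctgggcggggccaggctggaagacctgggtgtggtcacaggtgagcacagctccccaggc

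RefSeq windows were at hand for 5 of the 7 genes, those 4 and Serpinf1, and not for Plau and Plat. TGANTCA, which reads the same on both strands, was found in 3 of the 5, Plaur, Serpinb2 and Serpinb5, and in 6.75% of 32851 windows of the same length. It ended 63 bases before the start of Plaur, 88 before the upstream start of Serpinb2 and 134 before the start of Serpinb5. From the downstream start of Serpinb2 the same match lay 175 bases away. The letters were TGACTCA in Plaur and TGAATCA in Serpinb2 and Serpinb5, so only Plaur held the AP-1 core itself. ACAAAG was found in Serpine2 and Serpinb2 and in 16.5% of all windows, and ACAATG in Serpinf1 and in 10.7%. The GC box core GGGCGG, on either strand, matched 6 times before Serpine2, 3 times before Plaur and once before Serpinb5, in places overlapping itself, and was found in 32.7% of all windows. TATAAA was found before Serpinb2 alone and in 12.4% of all windows. These are matches of letters and not binding sites.

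Serpine2 (Entrez 20720, chromosome 1, 79794197 to 79861180, minus strand) encodes protease nexin-1, a secreted inhibitor of thrombin, urokinase, tPA and plasmin. It had 0, 2 and 0 counts in clone 1, and stood at 3.64, 4.61 and 4.19 CPM in clone 2 and at 17.7, 17.8 and 17.4 CPM in wild-type cells. The 3 groups formed 3 separate levels. Over summed counts clone 1 was 1869-fold lower than wild-type cells (95% counting interval 517 to 15435), and clone 2 was 4.27-fold lower, with a log2 fold change of -2.09 ± 0.14 and adjusted p of 4.22e-11 and 7.18e-08 (edgeR). Clone 2 was 437-fold above clone 1 (95% counting interval 121 to 3617), and this difference passed glmTreat at a log2 of 1 (adjusted p = 1.49e-08), as did 8.52% of all genes. Intervals here cover counting error only. The near loss in clone 1 was not shared by the neighbours Mrpl44, with a log2 fold change of -0.55, and Cul3, with 0.18. The median over chromosome 1 was -0.29 in clone 1 and 0.06 in clone 2.

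Serpinb2 (Entrez 18788, chromosome 1, 107511423 to 107535478, plus strand) encodes PAI-2, a mostly intracellular serpin that inhibits urokinase when released and is made in quantity by macrophages and keratinocytes. It stood at 0.394, 0.394 and 0.330 CPM in clone 1, at 6.82, 3.71 and 4.65 CPM in clone 2 and at 5.33, 3.70 and 4.19 CPM in wild-type cells. Clone 1 lay apart, while the libraries of clone 2 and wild-type cells overlapped. The log2 fold change was -3.56 ± 0.27 in clone 1 (adjusted p = 3.02e-07) and 0.20 ± 0.21 in clone 2, which was not called (adjusted p = 0.406, edgeR). Clone 2 exceeded clone 1 by a log2 of 3.76 ± 0.27 (glmTreat adjusted p = 6.51e-06). The replicate 1 library was the highest in clone 2 and in wild-type cells. Of 12 macrophage markers, 8 had at most 9 counts in every library, with C1qa, C1qb and C1qc at 0, and their sum of 285 to 299 CPM in clone 1, 227 to 240.2 CPM in clone 2 and 272 to 304 CPM in wild-type cells was mostly Cd14. The 4 markers tested went both ways, with 2 called higher and 2 lower in clone 2 than in wild-type cells, beside 37.3% and 37.1% of all genes. Lyz2 stood at 6.36 CPM in clone 2, 0.279 CPM in clone 1 and 0.0277 CPM in wild-type cells. In the same order Cd68 stood at 38.6, 9.80 and 10.1 CPM. Lyz2 had 6 counts in the wild-type libraries together and passed the expression filter only through the clones, so its call is no support for a rise. The 2 lower markers were Cd14, at 191, 282 and 279 CPM, and Csf1r, at 0.165, 0.221 and 0.442 CPM. The part of these markers in the difference of Serpinb2 between the clones was not tested. The annotated span of Serpinb2 overlaps that of Serpinb10, whose mean was 0.317 CPM in clone 2, 0.0191 CPM in clone 1 and 0 in wild-type cells, so a small share of reads could be placed in either gene.

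Serpinb5 (Entrez 20724, chromosome 1, 106861173 to 106883348, plus strand) encodes maspin and was nearly lost from both clones. It stood at 0.364, 0.289 and 0.201 CPM in clone 1, at 0.0960, 0.185 and 0.217 CPM in clone 2 and at 34.2, 30.1 and 30.3 CPM in wild-type cells. The clones overlapped each other and lay far below every wild-type library. The fall was 111-fold in clone 1 and 191-fold in clone 2 by summed counts, with log2 fold changes of -6.79 ± 0.19 and -7.57 ± 0.20 (adjusted p of 4.48e-11 and 2.96e-11, edgeR). The difference of the clones, a log2 of -0.78 ± 0.31, was not called (adjusted p = 0.0507, and 0.0233 to 0.495 over the alternatives tried). Vps4b, the nearest tested gene at 64.4 kb, had log2 fold changes of -0.03 and 0.06 and was called in neither clone. Serpinb11 on the other side, at 478 kb, had at most 0.197 CPM in a group.

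Serpinf1 (Entrez 20317, chromosome 11, 75409769 to 75422701, minus strand) encodes PEDF, a secreted protein known for restraining blood vessel growth. It stood at 0.955, 1.21 and 1.15 CPM in clone 1, at 1.42, 1.47 and 1.48 CPM in clone 2 and at 2.74, 2.87 and 4.45 CPM in wild-type cells. It was scarce in every group, and the clone libraries lay below those of wild-type cells. The log2 fold changes were -1.60 ± 0.21 and -1.21 ± 0.20 (adjusted p of 2.68e-05 and 2.1e-04, edgeR), and glmTreat at a log2 of 1 called clone 1 (adjusted p = 0.00706) and not clone 2 (adjusted p = 0.208). The clones differed by a log2 of 0.40 ± 0.21 (adjusted p = 0.137), which was not called. Its neighbour Serpinf2, 9.03 kb away, encodes the plasmin inhibitor alpha-2-antiplasmin and stood at 0.0661, 0.103 and 0.225 CPM. The other neighbour Smyd4 had log2 fold changes of 0.12 and 0.20.

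Among the serpins the order of levels per length differed by group. Clone 1 had Serpinf1 at 0.602, Serpinb2 at 0.187, Serpinb5 at 0.106 and Serpine2 at 0.00396 CPM per kb. Clone 2 had Serpinb2 at 2.53, Serpine2 at 1.88, Serpinf1 at 0.795 and Serpinb5 at 0.0622 CPM per kb, and the libraries of the leading 2 overlapped. With all annotated exons Serpinf1, at 0.617, came before Serpine2, at 0.500 CPM per kb, in clone 2. Wild-type cells had Serpinb5 at 11.8, Serpine2 at 7.98, Serpinb2 at 2.21 and Serpinf1 at 1.83 CPM per kb, where Serpinb2 and Serpinf1 overlapped. The 2 serpins that led in wild-type cells were thus the lowest in clone 1.

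The rest of the system was described through lists of genes chosen from knowledge of the pathway. Over all genes 28.7% were called higher and 29.4% lower in both clones, and the counts of each list stand beside these shares. Plg, which encodes plasminogen itself, had 0 counts in all 9 libraries, as did the activating protease Klkb1, and of the 8 genes of plasminogen, its other activators and its surface binding sites only 4 were tested. Of these, 2 fell in both clones, Plgrkt, a plasminogen receptor, and Eno1, an enolase that also binds plasminogen, with log2 fold changes of -0.44 and -0.95 in clone 1 and of -0.20 and -0.74 in clone 2. Anxa2 was called in neither clone and stood at 2161 CPM in clone 1, 2398 CPM in clone 2 and 2138 CPM in wild-type cells. Its partner S100a10, which together with annexin A2 binds tPA and plasminogen, was higher in clone 1 only by call, at 1029, 538 and 588 CPM, and clone 2 was lower than clone 1 by a log2 of -0.94 (adjusted p = 2.46e-07). The median log2 fold change of the 4 was -0.21 in clone 1 and -0.17 in clone 2.

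Of 8 other inhibitors of the activators and of plasmin, 4 were tested. Of these, 1 rose and 0 fell in both clones, beside 28.7% and 29.4% of all genes. In clone 1 alone 1 was called and in clone 2 alone 2, beside 1896 and 1610 of all 13928 genes tested. The median log2 fold change of the 4 tested genes was -0.24 in clone 1 and -0.21 in clone 2.

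Of 15 partners of uPAR and receptors that clear protease complexes, 11 were tested. Of these, 3 rose and 5 fell in both clones, beside 28.7% and 29.4% of all genes. Their median log2 fold change was 0.14 in clone 1 and 0.32 in clone 2. Lrp1, the endocytic receptor that takes up complexes of uPA or tPA with their inhibitors, stood at 1812 ± 120 CPM in clone 1, 1420 ± 208 CPM in clone 2 and 208 ± 28.3 CPM in wild-type cells (SD, n = 3 each), a rise of 8.68-fold and 6.75-fold. Itga5, the fibronectin receptor subunit alpha 5, rose with log2 fold changes of 2.71 ± 0.09 and 3.19 ± 0.09, while Itga3, which binds laminin and uPAR, fell with -2.26 ± 0.07 and -2.77 ± 0.07. Egfr fell with -0.31 ± 0.09 and -1.44 ± 0.09. Itgb3 had 0 counts in both clones and 38 in wild-type cells. Set against a floor of 3 counts over a group, clone 2 was at least 13.4-fold lower. Among the 5 that fell, Itgb3 passed the expression filter only through wild-type cells, so its call is no support for a shared fall. Vtn, the vitronectin gene, was too low to test.

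Of 21 genes whose products plasmin, uPA or tPA cleaves or activates, 16 were tested. In both clones 6 rose and 6 fell, beside 28.7% and 29.4% of all genes, with medians of -0.93 and -0.14. Fn1, fibronectin, rose in both clones, and its mean level was 3126 ± 234 CPM for clone 1, 1484 ± 217 CPM for clone 2 and 88.4 ± 14.3 CPM for wild-type cells (SD, n = 3 each). The laminin subunit gene Lamb3 fell, by the edgeR fit, with -4.82 ± 0.09 (log2, SE) in clone 1 and -2.76 ± 0.08 in clone 2. Both protease-activated receptors of the list fell: F2r stood at 5.08, 3.34 and 49.5 CPM, and F2rl1 had 0 counts in both clones and 1250 in wild-type cells. The bounds for F2rl1 were at least 394-fold lower for clone 1 and at least 441-fold lower for clone 2. F2rl1 passed the expression filter only through wild-type cells, so its call adds no support to the count of genes that fell. The fibrinogen genes Fga, Fgb and Fgg had 0 counts in every library.

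All 14 transcription factors known to act at Plau or Plaur were tested. Of these, 4 rose and 5 fell in both clones, beside 28.7% and 29.4% of all genes, with medians of -0.03 and -0.15. The counts lie near those shares and do not set the list apart. Fosb, an AP-1 subunit of the immediate-early class, fell in both clones, with 0.412 CPM in clone 1, 0.838 CPM in clone 2 and 10.9 CPM in wild-type cells. Jund fell with log2 fold changes of -0.58 ± 0.07 and -1.01 ± 0.07, while Fosl2 rose with 1.24 ± 0.04 and 0.77 ± 0.04, Jun with 0.57 ± 0.06 and 0.62 ± 0.06 and Nfkb1 with 0.70 ± 0.04 and 0.53 ± 0.04. AP-1 subunits thus went both ways.

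**Figure D4:**
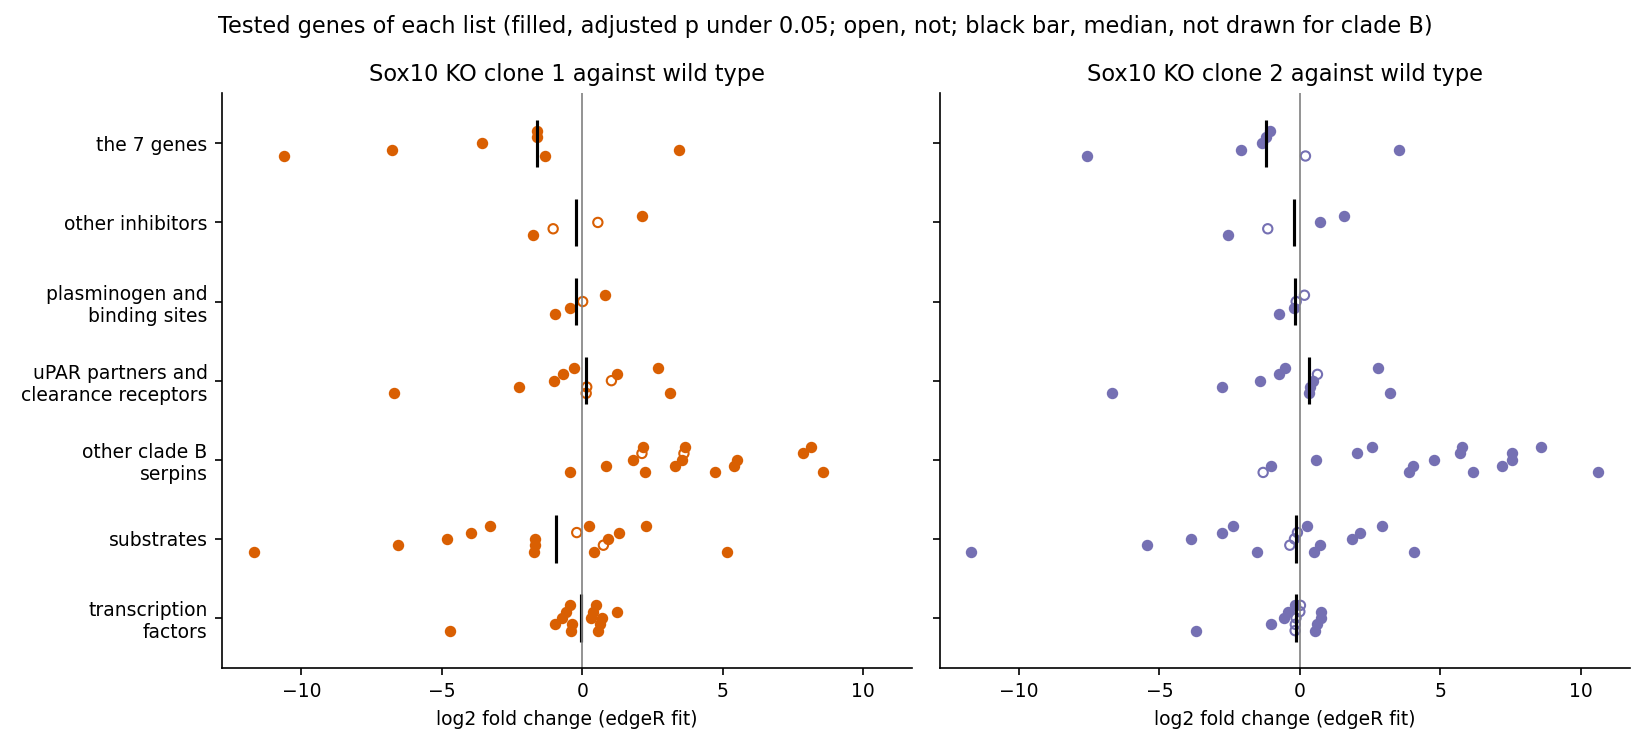
Log2 fold changes (horizontal axes) of the tested genes of each list in clone 1 (left) and clone 2 (right) against wild-type cells, on 1 scale; filled points were called at an adjusted p under 0.05, open points were not, and black bars are medians (none for clade B). The lists around the 7 genes spread to both sides of 0, with medians from -0.93 to 0.32; points of genes with 0 counts in a group are fitted values and no bounds.

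The other clade B serpins, relatives of Serpinb2 and Serpinb5 that lie on chromosomes 1 and 13, held 25 genes, of which 16 were tested. In both clones 13 rose and 1 fell, but 9 of the 13 had under 10 counts in every wild-type library and passed the expression filter only through the clones, so their count is no support for a shared rise. On chromosome 1, where Serpinb2 and Serpinb5 lie, 5 of 10 had 0 counts in all libraries. Serpinb7, next to Serpinb2, had 0 counts in wild-type cells and was at least 28.6-fold higher in clone 1 and at least 18.3-fold higher in clone 2, at 0.389 and 0.243 CPM. Serpinb1a was likewise at least 35.2-fold and at least 23.3-fold higher, and Serpinb1b, with 2 wild-type counts, was 50.2-fold (95% counting interval 13.5 to 421) and 64.3-fold (17.5 to 536) higher. Serpinb9e and Serpinb9d stood at 0.630 and 0.0743 CPM in clone 1 and at 2.65 and 0.636 CPM in clone 2, against 0 counts in wild-type cells; the Serpinb9 genes are close copies and can share reads. The gene that fell was Serpinb6a, at 212 CPM in clone 1, 140.2 CPM in clone 2 and 286 CPM in wild-type cells.

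The genes whose profile over the 9 libraries was most like that of each of the 7 were listed by Pearson's r of log2 CPM among 10466 or 10467 other genes, as a description. With 3 groups many genes reach a high r: 208 genes had an r of at least 0.99 with Plau, 165 with Plaur, 377 with Plat, 28 with Serpine2, 10 with Serpinb2, 181 with Serpinb5 and 2 with Serpinf1. The closest were Proser2, Swap70 and Bst1 for Plau (r of 0.9990, 0.9990 and 0.9989), Pcyt2, Slc52a3 and Fbf1 for Plaur (0.9984, 0.9978 and 0.9977), and Sema4a, Sh3rf3 and Mfsd1 for Plat (0.9997, 0.9996 and 0.9996). For the serpins they were Syt13, Ikbke and Oas1a for Serpine2 (0.9979, 0.9978 and 0.9968), Sorbs2, Col8a1 and Tram1 for Serpinb2 (0.9958, 0.9949 and 0.9942), Slc22a23, Stx3 and Igf1r for Serpinb5 (0.9975, 0.9974 and 0.9965) and Nhsl1, Pef1 and D2hgdh for Serpinf1 (0.9922, 0.9919 and 0.9867). The likeness is of shape and not of size: Bst1 stood at 1.24, 3.11 and 212 CPM in clone 1, clone 2 and wild-type cells, a far larger fall than that of Plau. None of these was among the 7 or on the pathway lists.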

How the data were processed

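The authors deposited 1 table of raw counts per Entrez gene for 9 libraries of stranded polyA-enriched RNA; per the submitters' processing notes fastp, Subread and DESeq2 and the builds mm10 and GRCm38 were used, without versions, while the annotation and strand setting used were not given in the sources used here. Symbols came from RefSeq (24570 of 24594 identifiers matched; the rest held at most 0.202% of a library's counts), positions and transcript lengths from GENCODE M21 (APPRIS principal transcript). Genes were kept by filterByExpr (minimum count 10; 13928 genes), scaled by TMM and fitted with edgeR 4.0.16 (R 4.3.3) in a quasi-likelihood model of 3 groups; Benjamini-Hochberg adjusted p under 0.05 was called, and glmTreat tested against a log2 fold change of 1. SE are approximate (log2 fold change over the square root of F). Log2 CPM for likeness used a prior count of 2. DESeq2 1.42.0 was an alternative. Groups with 0 counts were set to a floor of 3 counts over the group. The fit was run on simulated data in which a small part of the genes changed, in clone 1 only. Far more genes were called here, so that run does not test the fit under changes this wide. The genes, lists and tests were chosen with earlier results of these data known. Named were the 7 genes, up to 5 per list called in both clones with the largest mean change, Plg, the 3 most alike genes (mean of 5 CPM or more in some group) and nearest tested neighbours; Anxa2, S100a10, Klkb1, Vtn, Serpinb6a, Bst1's level and the fibrinogen genes were named after their values were seen. Some genes that this rule names are not reported here. The 7 neutrophil markers, 2 of them tested, summed to 17.6 to 20.4 CPM in clone 1, 83.4 to 108 CPM in clone 2 and 25.3 to 33.3 CPM in wild-type cells. Nearly all of this was S100a8, at 18.8, 92.6 and 28.6 CPM in that order. The other tested marker, S100a9, went the other way in clone 2, with 0 counts in both clones and 42 in wild-type cells.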

Additional observations from a re-analysis of the deposited data

Results flagged for a closer look

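Clone 2 and clone 1 differed by glmTreat at a log2 of 1 in 16 of the genes looked at: the 7 genes, the list genes named by rule, list genes next to a member, and the cell type markers. Of all tested genes 8.52% passed this test. The list genes named by rule were picked for large changes, so the count of 16 is not read against this share. Serpine2 was higher in clone 2 than in clone 1 by a fitted log2 of 8.54 (adjusted p = 1.49e-08), a value that rests on 2 counts in clone 1. Serpinb2 was higher by 3.76 (adjusted p = 6.51e-06), with all 3 clone 2 libraries above all 3 of clone 1, and its overlapping neighbour Serpinb10 by a fitted 3.95 (adjusted p = 0.0265). The laminin subunit gene Lamb3 was higher by 2.06 (adjusted p = 2.14e-07), with clone 2 at 35.0 CPM, against 8.36 CPM in clone 1. The close copies Serpinb9e and Serpinb9d were higher by 2.07 and 3.05 (adjusted p = 0.039 and 0.00461), at levels under 3 CPM and with reads that copies can share. The other 10 were markers: Krt14 (log2 of 3.75), Krt7 (3.54), Cd68 (1.98), Lyz2 (4.50) and S100a8 (2.30) were higher in clone 2. Epcam (-4.38), Cdh1 (-1.41), Col3a1 (-5.27), Kdr (-5.07) and S100b (-3.64) were lower in clone 2. The value of Epcam is a fitted one that rests on 7 counts in clone 1 and 0 in clone 2. By the floor of 3 counts Epcam was at least 2.61-fold lower in clone 2. Loss of Sox10 and traits of each clone cannot be told apart in these differences.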

How the results depend on the processing

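Of the 7 genes, 7 were called for clone 1 and 6 for clone 2 under each alternative run: DESeq2, total counts or upper quartile in place of TMM, no filter or a filter of 1 CPM in 3 libraries, only the 2 groups compared, the replicate block, each library left out in turn, and (chosen after seeing the data) replicate 1 of every group left out together. Between the clones 4 were called, and 5 where Serpinb5 passed, which it did in DESeq2 (-0.78), with no filter (-0.77), at 1 CPM (-0.80), in the replicate block (-0.78), and without clone 1 replicate 3 (-0.97), clone 2 replicate 3 (-1.02) or wild-type replicate 1 (-0.80); without replicate 1 of every group it was -0.29 (adjusted p = 0.495). No direction of a called gene reversed in these runs. The counts of all genes called stayed within 1.5 times: leaving out 1 library gave 10129 to 10843 in clone 1, 9886 to 10544 in clone 2 and 7030 to 8556 between the clones. The replicate numbers were not taken to pair the libraries, since they are not stated to mark a shared batch. Same-numbered libraries of different groups correlated by 0.0143 to 0.249, and 4 of 9 pairs exceeded 0.1. Libraries of different numbers and groups correlated by -0.212 to 0.134, and 6 of 9 libraries correlated best with their own number. These values do not exclude a shared effect of the number, so the fit with a replicate block is given as well. With the replicate block 11420, 11257 and 9439 genes were called, beside 10653, 10367 and 8018 without it. Without replicate 1 of every group they were 11202, 10971 and 8892. The Plau to Plat ratio per kb moved to 0.470 in clone 1, 0.540 in clone 2 and 15.9 in wild-type cells with all annotated exons (chosen after seeing the data). Depth limits Serpine2 in clone 1, where 3 counts over the group correspond to 0.0142 CPM.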
